A study of Arabidopsis thaliana with 12 samples.

Results

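The genes described here are 4 Arabidopsis thaliana loci of the iron-deficiency response: AT1G47400, AT5G05250, PYE (AT3G47640) and BHLH101 (AT5G04150). They were taken by locus from the probe sets that the platform's annotation pairs with a single gene. Each of the 4 loci had 1 such probe set, out of 22746 probe sets tested and 13286 loci with a single-gene probe set. The loci were chosen by measured values, their salt responses on these same arrays, so their levels and differences are given as a description, with no test.

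Plants that run short of iron switch on a shared set of genes in roots and leaves. IRON MAN peptides, small peptides that move iron-deficiency signals between organs, interfere with BRUTUS-type ubiquitin ligases. These ligases otherwise mark some members of a group of bHLH transcription factors (bHLH34, bHLH104, ILR3, bHLH115) for breakdown. The factors of this group, together with bHLH121, switch on further bHLH genes, among them PYE and BHLH101. AT1G47400 encodes an IRON MAN peptide. PYE, known as POPEYE, is a bHLH protein that represses genes of iron movement and storage, and BHLH101 is one of the subgroup Ib bHLH factors that work with FIT in roots. AT5G05250 encodes a protein of unassigned function whose transcript is widely used as a marker of iron shortage.

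Leaf RNA came from the genotypes Ws (Wassilewskija), Col (Columbia) and Col(gl), each at 0 and 100 mM NaCl, with 2 arrays per combination and 12 arrays in all. Plants grew on soil watered with a nutrient solution. Salted plants received NaCl in steps of 50 mM up to 100 mM, unsalted plants the same solution without NaCl, and all were 20 days old from sowing and 6 days past the start of treatment. The labels do not say how Col(gl) differs from Col, no iron treatment or iron measurement is described, and the Col arrays belong to another deposited series as well. Arrays of 1 combination are described as biological replicates, without saying whether plants were pooled, and every error below measures only the spread between these arrays. All signals are on the authors' log2 scale, so a difference of 1 is a 2-fold change.

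Array medians lay between 6.15 and 6.38 and lower quartiles between 4.19 and 4.42. A signal at or under the lower quartile of its array is not shown to be above background. There were 2 arrays that stood apart, replicate 1 of salted Ws and replicate 1 of salted Col. Their median signal of plastid-encoded genes was 8.73 and 9.48, against 10.34 to 11.78 on the others, and the gap between the 3′ and 5′ actin control probe sets was 1.98 and 1.65, against 0.70 to 1.14. Unsalted Col(gl) was shifted the same way by less, with plastid medians of 10.34 and 10.35 and actin gaps of 1.14 and 1.09. The remaining arrays had medians of at least 11.22 and gaps of at most 0.96. That shift covers a whole group, so it cannot be told apart from any difference involving unsalted Col(gl), its salt responses included. The leaf marker RCA, the Rubisco activase gene, was at 13.6 to 14.1 on all arrays, but only 1 of 8 leaf markers carried a name here. Of 10 root markers 3 were measured. EXPA7 and EXPA18 lay between 4.16 and 4.87 on all arrays and fell with salt in Col, by 0.47 and 0.56 on the log2 scale (limma adjusted p = 0.0359 and 0.00411, the second with the salted signal at background). PYK10, a root beta-glucosidase, went the other way and alone raised the sum of the root markers: it was at 9.99 and 7.73 in salted Col and at 6.73 and 3.61 in salted Ws, against 3.51 to 4.0 elsewhere. The summed signal of the 3 root markers ran from 16.2 to 18.6 in salted Col and from 12.4 to 15.5 in salted Ws, against 12.8 to 13.5 over the other groups. SWEET11, a sugar exporter gene and the 1 of 8 phloem markers measured, was lower with salt in Col, by -0.74 (adjusted p = 0.0416). At 100 mM it was higher in Col(gl) than in Col, by 1.15 (adjusted p = 0.00921), and lower in Ws than in Col(gl), by -1.11 (adjusted p = 0.00768). The lowest SWEET11 signals were on the 2 arrays that stood apart, 10.54 in salted Ws and 10.49 in salted Col. Replicate 2 of these groups gave 11.25 and 11.20. The guard cell marker FMA, 1 of 5, lay between 6.50 and 7.23 and did not pass the test for salt in any genotype. The part of these markers in the results below was not tested.

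AT1G47400, the IRON MAN peptide gene, was high in unsalted Ws and low in unsalted Col and Col(gl), and with salt the order was reversed. Its signal in Ws was 8.22 and 8.17 without salt and 6.59 and 5.87 with salt. In Col it was 5.46 and 5.10 without salt and 9.81 and 8.15 with salt. In Col(gl) it was 5.96 and 5.73 without salt and 8.27 and 8.43 with salt. The salted and unsalted arrays did not overlap in any of the 3 genotypes. In whole-leaf RNA, a change in the share of a cell type and a change in RNA per cell cannot be told apart.

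The fitted salt response of AT1G47400 was -1.97 ± 0.44 (SE, n = 2 arrays per group here and throughout) in Ws, a signal 3.91-fold lower. It was 3.70 ± 0.44 in Col, 13.0-fold higher, and 2.50 ± 0.44 in Col(gl), 5.67-fold higher. The difference between the responses of Ws and Col, -5.67 ± 0.62, was the lowest of all 22746 probe sets. The gene was chosen by its salt responses, so nothing is read from this rank. Salted Col carried the widest replicate gap of this gene, 1.66. Without replicate 1 of salted Col, 1 of the 2 arrays that stood apart, the response in Col was 2.87 and the difference of responses -4.84. With replicate 1 of salted Ws left out as well, the response in Ws was -2.33 and the difference of responses -5.20.

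By group mean, the levels of AT1G47400 ran from unsalted Col (5.28) through unsalted Col(gl) (5.85), salted Ws (6.23), unsalted Ws (8.20) and salted Col(gl) (8.35) to salted Col (8.98). Arrays of unsalted Col(gl) and salted Ws overlapped, and so did those of salted Col(gl) and salted Col. Unsalted Ws thus gave a signal close to that of the salted Columbia groups. Whether the probe sets bind transcripts of Ws and Col equally was not tested, here or for the other genes. The gap of Ws over Col was 2.92 without salt and -2.75 with salt. Col(gl) differed from Col by 0.57 without salt and by -0.63 with salt, and the second of these became 0.20 without replicate 1 of salted Col.

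**Figure D1:**
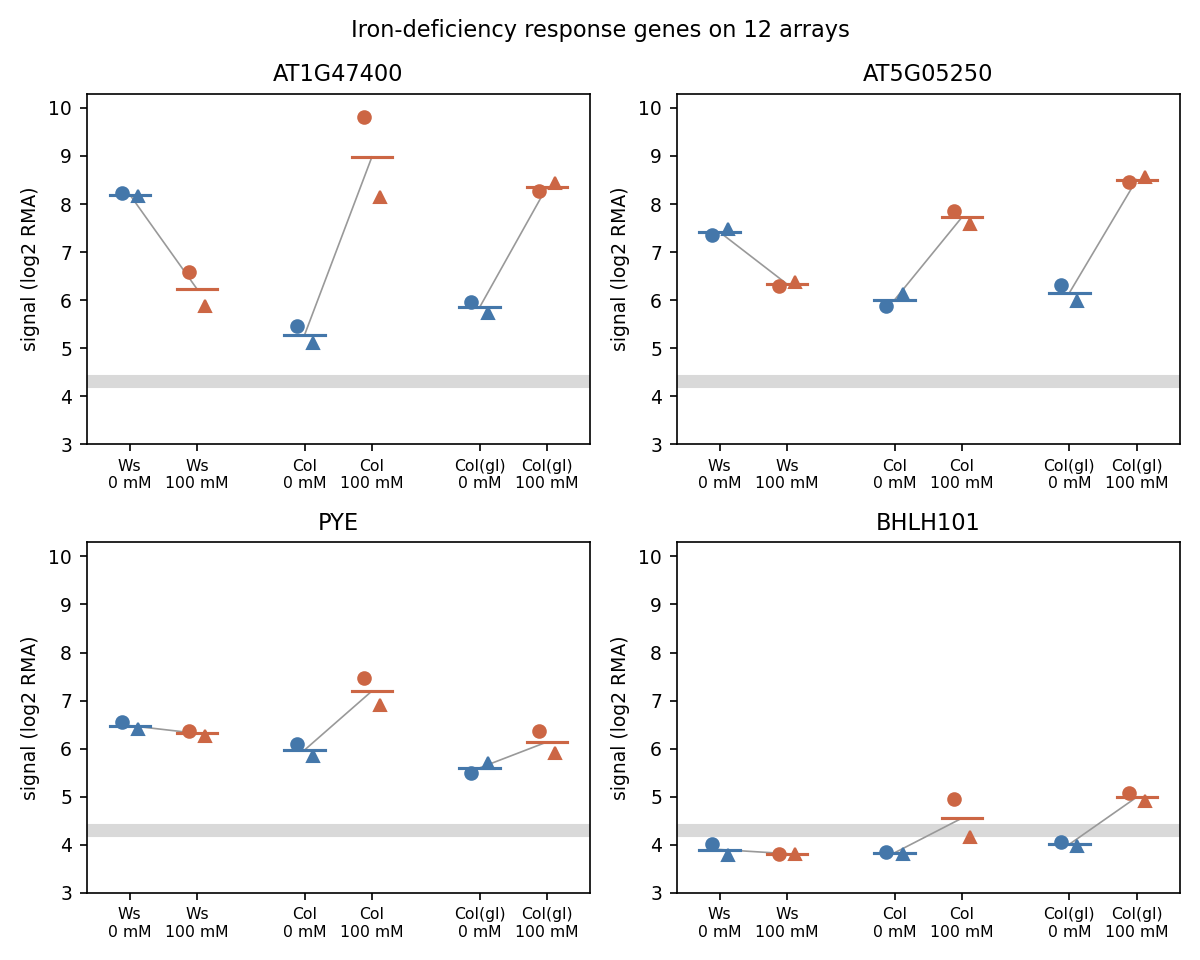
Log2 signal (vertical axis) of the 4 genes on each array, by genotype and salt; circles are replicate 1, triangles replicate 2, bars group means, blue 0 mM and orange 100 mM NaCl, and the grey band is the range of array lower quartiles (4.19 to 4.42). AT1G47400 had a mean of 8.20 without and 6.23 with salt in Ws and was higher with salt in Col and Col(gl), while BHLH101 lay near the band in most groups.

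AT5G05250 followed a similar order in smaller steps and with tighter replicates. In Ws its signal was 7.35 and 7.49 without salt and 6.30 and 6.37 with salt. In Col it was 5.88 and 6.12 without salt and 7.85 and 7.59 with salt. In Col(gl) it was 6.32 and 5.99 without salt and 8.46 and 8.55 with salt. Again no salted array overlapped an unsalted one of its genotype, and the widest gap between replicates was 0.33.

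The response of AT5G05250 was -1.08 ± 0.15 in Ws (2.11-fold lower), 1.72 ± 0.15 in Col (3.29-fold higher) and 2.35 ± 0.15 in Col(gl) (5.11-fold higher). The responses of Ws and Col differed by -2.80 ± 0.21, the 22nd lowest of all probe sets. The difference between Ws and Col(gl) was -3.43 ± 0.21, the 25th lowest. Salt responses chose this gene too, so nothing is read from these ranks. Unlike AT1G47400, this gene was highest in salted Col(gl), at 8.51, above salted Col at 7.72 and unsalted Ws at 7.42, and these groups did not overlap. The 3 low groups, unsalted Col (6.00), unsalted Col(gl) (6.15) and salted Ws (6.34), overlapped with their neighbours. The gap of Ws over Col was 1.41 without salt and -1.39 with salt.

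PYE, the POPEYE repressor, had its widest salt step in Col. Its signal there was 6.09 and 5.86 without salt and 7.48 and 6.92 with salt. In Col(gl) it was 5.50 and 5.70 without salt and 6.37 and 5.91 with salt. In Ws it was 6.55 and 6.41 without salt and 6.37 and 6.27 with salt. The arrays of each genotype did not overlap between salt levels, but the steps in Ws and Col(gl) were no larger than the widest gap between replicates of this gene, 0.56 in salted Col.

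The fitted responses of PYE were 1.23 ± 0.20 in Col (2.34-fold higher), 0.54 ± 0.20 in Col(gl) and -0.16 ± 0.20 in Ws. The response of Ws differed from that of Col by -1.39 ± 0.29 and from that of Col(gl) by -0.70 ± 0.29. Salted Col, at 7.20, stood above unsalted Ws (6.48), salted Ws (6.32), salted Col(gl) (6.14), unsalted Col (5.97) and unsalted Col(gl) (5.60). Salted Col(gl) overlapped with salted Ws and with unsalted Col. Without replicate 1 of salted Col the response in Col was 0.95.

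BHLH101, the subgroup Ib bHLH gene, was close to background on most arrays. Its signal in Ws was 4.01 and 3.79 without salt and 3.81 and 3.82 with salt. In Col it was 3.86 and 3.81 without salt and 4.94 and 4.16 with salt. In Col(gl) it was 4.05 and 3.97 without salt and 5.07 and 4.91 with salt. It was at or under the array's lower quartile on 9 of 12 arrays, the exceptions being replicate 1 of salted Col and both arrays of salted Col(gl).

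The unsalted Col(gl) arrays were at background and the salted ones above it, so the response of BHLH101 in Col(gl) is a lower bound, at least 0.98 ± 0.21 on the log2 scale. In Col the fitted value was 0.72 ± 0.21, but it rests on 1 array and is not a bound: without replicate 1 it was 0.33, with the remaining salted array at background as well. In Ws both groups were at background and no change is given.

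**Figure D2:**
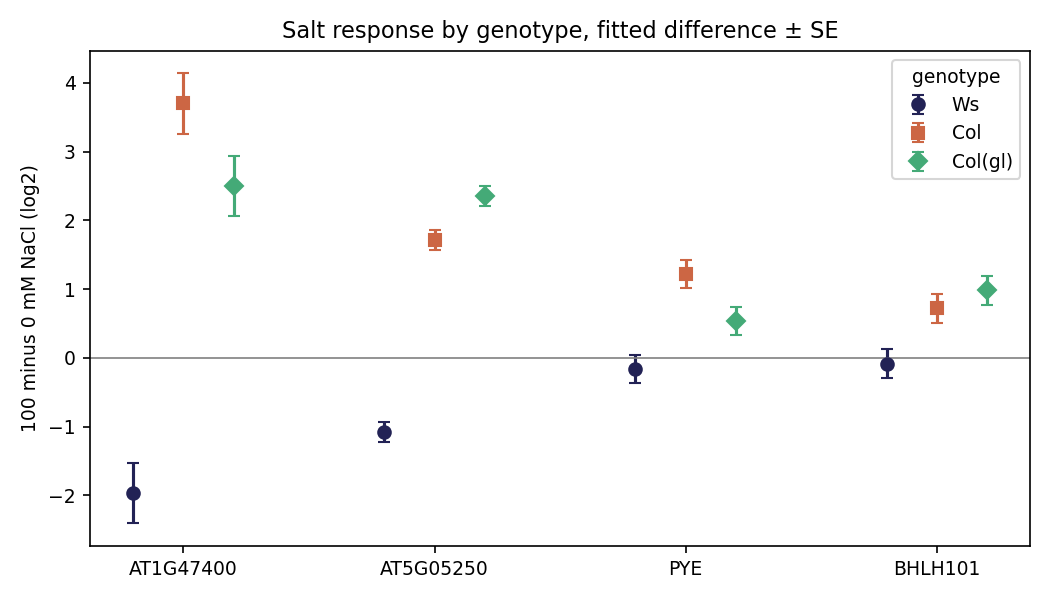
Fitted salt response (100 minus 0 mM NaCl, log2, vertical axis) of each gene in each genotype; bars are standard errors. AT1G47400 and AT5G05250 lie below 0 in Ws (-1.97 and -1.08) and above 0 in Col and Col(gl); for BHLH101 the Col(gl) value is a lower bound, the Col value rests on 1 salted array above background, and the Ws value compares signals at background.

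Side by side, all 4 genes had positive responses in Col and in Col(gl), with median log2 responses of 1.47 and 1.67 against -0.13 and -0.02 over all probe sets. In Ws the median was -0.62, against -0.03 over all probe sets. Salted arrays lay above unsalted ones without overlap for 4 of 4 genes in Col and 4 of 4 in Col(gl), which was true of 26.8% and 26.5% of all probe sets. In Ws they lay below without overlap for 3 of 4 genes, against 31.3% of all probe sets. BHLH101 enters these medians and counts, although its Col value rests on replicate 1 of salted Col and its Ws value compares signals at background. The values that chose the genes are part of these counts, so nothing is read from them. Responses of Ws and of Col(gl) set against that of Col share the Col arrays.

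The 4 genes did not vary alike. Group means of AT1G47400 spanned 3.70 log2 units, those of AT5G05250 2.50, those of PYE 1.60 and those of BHLH101 1.18. Over the 12 arrays AT1G47400 and AT5G05250 had a Pearson r of 0.889, the highest of the 6 pairs. The lowest was 0.349, for PYE and BHLH101. Over the 10 arrays left without the 2 that stood apart, these values were 0.929 and 0.0544. By group mean PYE was highest in salted Col and BHLH101 in salted Col(gl), but BHLH101 arrays of these groups overlapped. BHLH101 was at or under the lower quartile on 9 of 12 arrays, so its span and its coefficients rest largely on signals at background. These coefficients describe arrays that share genotypes, treatments and array quality, and carry no p.

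A response of at least 1 log2 unit downward in Ws and at least 1 upward in both Col and Col(gl) was found for 4 of 22746 probe sets. AT1G47400 and AT5G05250 were among them, and the other 2 probe sets carried no gene name here. The mirror image, upward in Ws and downward in both others, was found for 2 probe sets. The size of 1 was set after the values had been seen. The 4 genes were chosen by their salt responses on these arrays, so nothing is read from their presence among these probe sets.

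**Figure D3:**
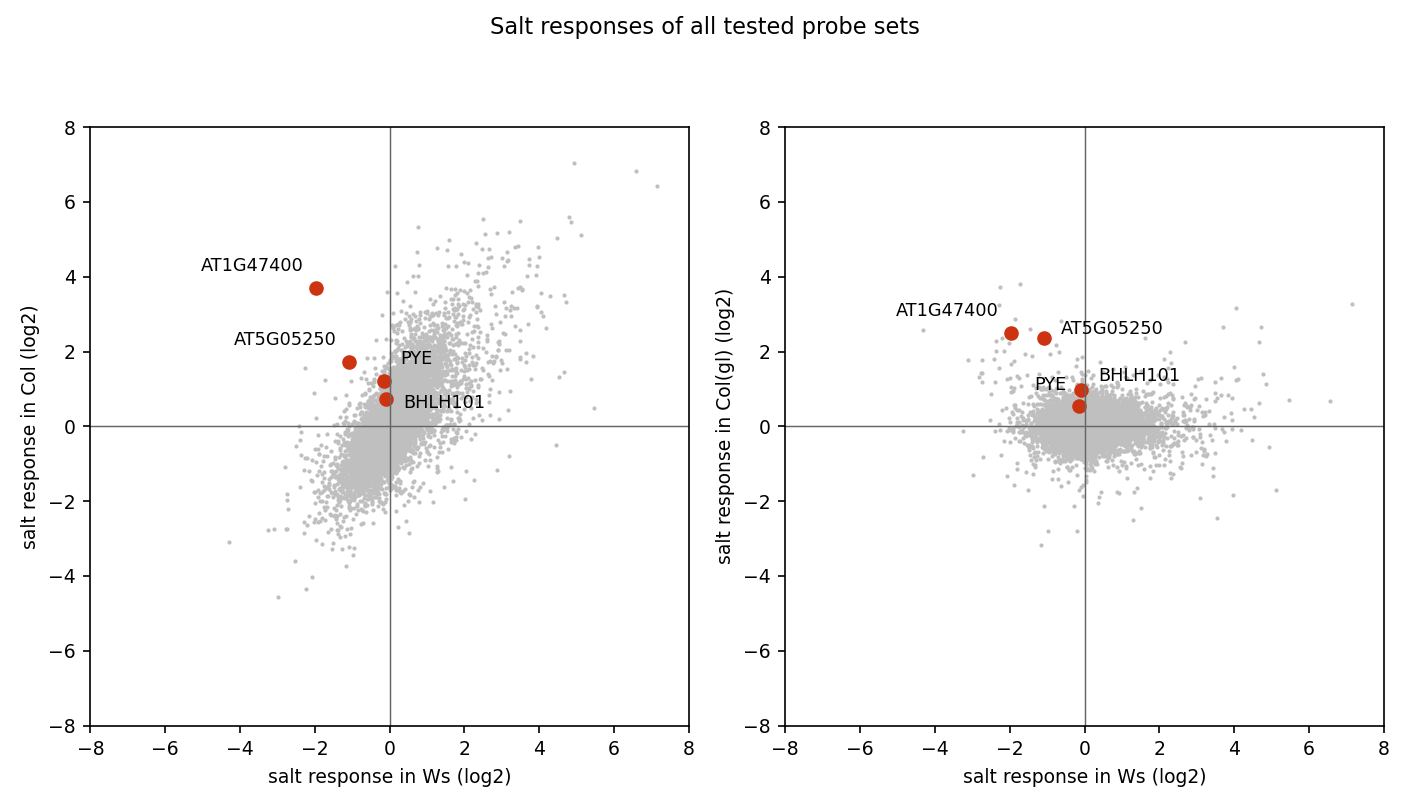
Salt responses (log2) of all 22746 tested probe sets in grey and of the 4 genes in red, with Ws on the horizontal axis against Col (left) and Col(gl) (right) on the vertical axis. AT1G47400 and AT5G05250 lie in the upper left, at -1.97 and -1.08 in Ws, away from the bulk of the probe sets. The genes were chosen by these responses.

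Genes flanking the 4 loci on the chromosome gave a view of their surroundings. Of 8 flanking genes 5 were measured by a probe set of their own, and their responses ran from -0.33 to 0.05 in Ws, from -0.33 to 0.14 in Col and from -0.18 to 0.25 in Col(gl). CYP79A2, the measured neighbour of AT5G05250, was at background in every group, so no response can be read from it. In Col 1 of the 5 passed the test (limma, Benjamini-Hochberg adjusted p under 0.05 over all probe sets), where 37.5% of all probe sets did. It was AT3G47650, next to PYE, at -0.33 (adjusted p = 0.0291), opposite in sign to PYE. AT1G47395, the neighbour of AT1G47400, encodes a closely related IRON MAN peptide and had no probe set of its own here. Whether its transcript also binds the AT1G47400 probe set was not tested.

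The rest of the iron pathway was followed through lists of 86 iron genes, 19 of which were measured by a single-gene probe set, and of 10 copper genes, of which only CCS was measured. Among the iron genes 11 of 19 regulators, 2 of 8 peptides and leaf markers, 4 of 6 coumarin genes and 2 of 22 genes of chelation and movement had a value. No gene of iron reduction and uptake, of iron storage or of iron-dependent enzymes had one, so ferritins, IRT1 and FRO2 were not analysed here. BTS, OPT3, FRO3, NAS4, ZIF1, BHLH038, BHLH039 and BHLH100 had no value either.

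Of these 20 genes 4 were higher with salt in Col and 6 were lower, where 16.4% and 21.1% of all probe sets were called higher and lower. In Ws 2 were higher and 2 lower, against 9.16% and 7.45% of all probe sets. Without replicate 1 of unsalted Col the 10 calls in Col became 6, and without replicate 2 of unsalted Ws the 4 calls in Ws became 2. A fit on the Ws arrays alone called 0 of 20 in Ws. In Col(gl) 0 of 20 passed the test in limma, with 4 at an unadjusted p under 0.05, and 1.49% of all probe sets were called. The median response of the 20 genes was -0.06 in Ws, -0.20 in Col and -0.01 in Col(gl), close to the medians of -0.03, -0.13 and -0.02 over all probe sets.

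Among the upstream regulators bHLH34, one of the factors that switch on PYE and BHLH101, fell with salt where it passed the test. Its signal in Col was 7.89 and 8.04 without salt and 6.98 and 6.61 with salt, a response of -1.17 ± 0.15 (limma adjusted p = 0.0003). In Ws it fell by 0.70 ± 0.15 on the log2 scale (adjusted p = 0.0109), a call lost without replicate 2 of unsalted Ws, and in Col(gl) the response was -0.64 ± 0.15 (adjusted p = 0.0674). Unsalted Col(gl) was already lower than unsalted Col, by -2.15 ± 0.15 (adjusted p = 5.2e-06). PYE was higher with salt in Col, where bHLH34 was lower.

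Of the other upstream factors ILR3 fell in Col, by 0.49 ± 0.11 (adjusted p = 0.00899), a call that was lost without replicate 1 of unsalted Col. bHLH104 and bHLH115 did not pass the test for salt in any genotype. bHLH115 was higher in unsalted Ws than in unsalted Col, by 0.68 ± 0.19 (adjusted p = 0.0378), a call lost in 9 of 21 alternatives, leaving out any single array of those groups among them. bHLH121 was higher in Col(gl) than in Col, by 0.81 without salt (adjusted p = 0.00464) and by 1.00 with salt (adjusted p = 0.00205).

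AT1G74770, a BRUTUS-like ubiquitin ligase gene, fell in Col by 0.48 ± 0.15 (adjusted p = 0.029), while a second probe set of the gene gave -0.20 (adjusted p = 0.188), and leaving out replicate 1 of either Col group ended the call. Its signal was at or under the lower quartile on 4 of 12 arrays, replicate 1 of salted Col among them. NAI1, a bHLH gene, was higher in salted Col by 0.40 ± 0.14 (adjusted p = 0.0444). Its signal was at or under the lower quartile on 10 of 12 arrays, unsalted Col included, and the call was lost in 12 of 19 alternatives.

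AT3G56360, a gene often listed among leaf iron-deficiency markers, rose with salt in Col. Its signal was 10.76 and 10.51 in unsalted Col and 11.42 and 11.56 in salted Col, a response of 0.86 ± 0.13 (adjusted p = 0.000902). In Ws the response was 0.13 ± 0.13 (adjusted p = 0.553) and in Col(gl) 0.62 ± 0.13 (adjusted p = 0.0533). With salt it was lower in Ws than in Col, by -0.73 ± 0.13 (adjusted p = 0.00526). AT3G07720, another such marker and a kelch-repeat protein gene, went the other way in Col, at -0.66 ± 0.15 (adjusted p = 0.00913), a call lost without replicate 1 of unsalted or of salted Col.

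Coumarins are phenolics that roots release to mobilise iron. AT1G28680, which encodes the coumarin synthase COSY, fell with salt in Ws by 0.85 ± 0.16 (adjusted p = 0.006) and in Col by 0.76 ± 0.16 (adjusted p = 0.005). AT3G12900, the scopoletin hydroxylase gene, fell in Col by 0.77 ± 0.17 (adjusted p = 0.00607). BGLU42, a beta-glucosidase that frees coumarins from their sugar, went the opposite way, rising by 0.76 ± 0.12 in Ws (adjusted p = 0.00321) and by 0.93 ± 0.12 in Col (adjusted p = 0.000441). AT3G13610, a hydroxylase gene of an earlier coumarin step, did not pass the test for salt, but was lower in Col(gl) than in Col, by -0.78 without salt (adjusted p = 0.041) and with salt by at least 0.86 in size (fitted difference -0.86, adjusted p = 0.0289), a bound since the mean of salted Col(gl) was at background. Leaving out single arrays of Col or Col(gl) ended both of these calls. The call of AT1G28680 in Ws was lost without replicate 2 of unsalted Ws. Unsalted Col(gl) was also lower than unsalted Col for AT1G28680, by -1.21 ± 0.16 (adjusted p = 0.000343). For BGLU42 it was higher, by 1.02 ± 0.12 (adjusted p = 0.000225). Over the alternatives these differences ran from -1.33 to -1.09 and from 0.98 to 1.05. The BGLU42 mean in unsalted Col(gl), 8.16, was thus already close to that of salted Col, 8.07.

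The copper chaperone gene CCS, whose product loads copper into superoxide dismutase, rose with salt by 0.90 ± 0.13 in Ws (adjusted p = 0.00185) and by 1.41 ± 0.13 in Col (adjusted p = 6.12e-05). Its response in Col(gl) was 0.32 ± 0.13 (adjusted p = 0.288), and the difference of that response from the one in Col passed the test. Without salt it was higher than in Col both in Col(gl), by 1.47 (adjusted p = 3.12e-05), and in Ws, by 1.02 (adjusted p = 0.000858). The measured genes of mitochondrial iron transport, AT2G30160 and AT1G07030, did not pass the test for salt in any genotype.

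Differences between the salt responses themselves were called for 0 of 20 genes between Ws and Col, with 5 at an unadjusted p under 0.05 in limma, and for 4.66% of all probe sets. Between Col(gl) and Col they were called for 2 of 20 genes, both lower, against 8.58% of all probe sets called lower. These were BGLU42 (-1.04 ± 0.18, adjusted p = 0.00432) and CCS (-1.08 ± 0.19, adjusted p = 0.00471). The genotype comparisons without salt called 2 of 20 between Ws and Col and 8 of 20 between Col(gl) and Col, against 15.8% and 23.8% of all probe sets. With salt they called 3 and 5 of 20, against 12.7% and 24.3%. The 2 calls became 1 without either replicate of unsalted Ws, Col or Col(gl) or of salted Col(gl), 4 without either replicate of salted Col, and 5 without either replicate of salted Ws. The 8 calls became 5 without replicate 1 of unsalted Col, and the last 5 became 2 without replicate 1 of salted Col(gl).

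**Figure D4:**
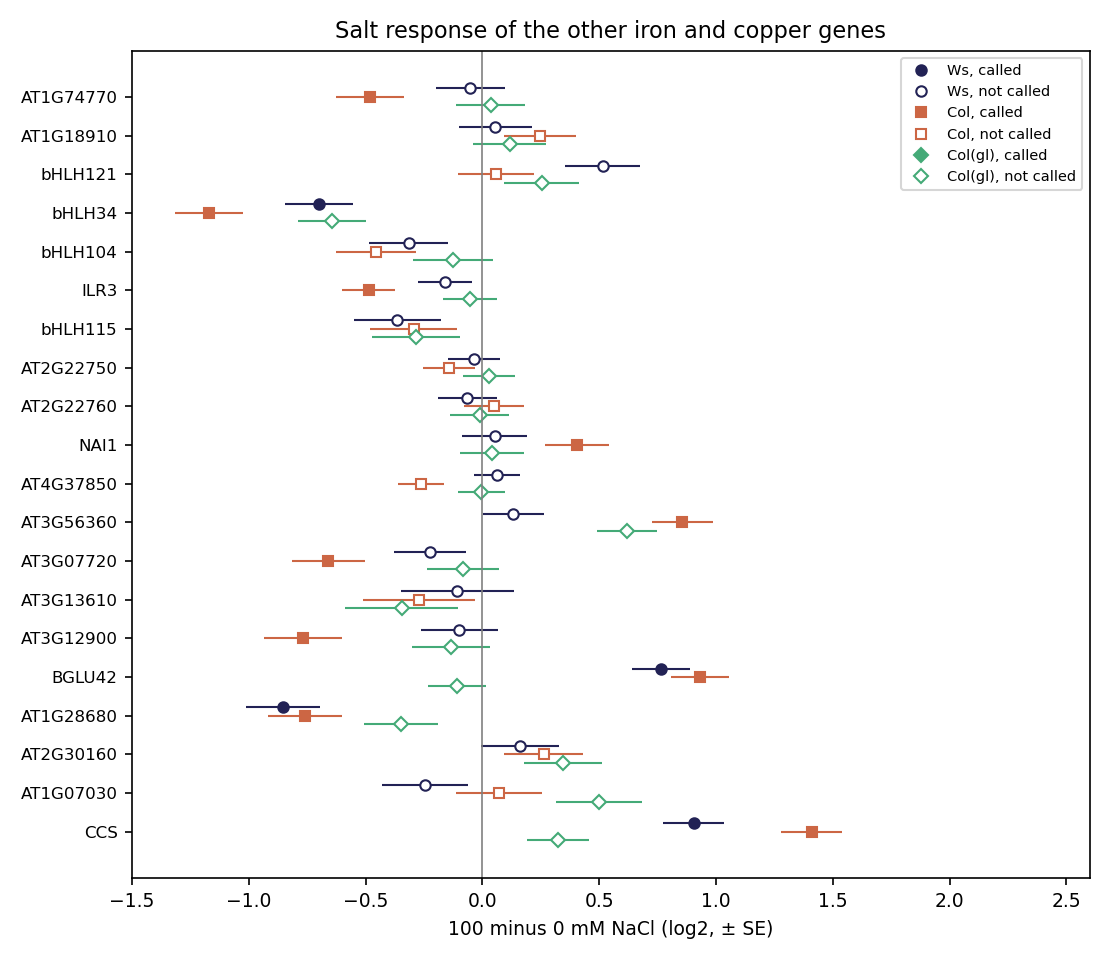
Salt response (100 minus 0 mM NaCl, log2, horizontal axis) of the 20 other measured iron and copper genes in the 3 genotypes; bars are standard errors and filled symbols passed the test at an adjusted p under 0.05. In Col 4 genes were higher and 6 lower, from -1.17 for bHLH34 to 1.41 for CCS, and no symbol of Col(gl) is filled.

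The genes whose signals ran most like the 4 were sought among 3491 single-gene probe sets with group means spanning at least 1 log2 unit, by Pearson r over the 12 arrays with the mean of the 4 standardised genes. The 8 highest were petL (0.900), AT3G17770 (0.833), AT1G61640 (0.781), AT1G28710 (0.769), AT2G15000 (0.760), AT3G48710 (0.752), RECQ4A (0.736) and AT3G10180 (0.729). Ranked by the correlation of group means instead, 5 of these 8 stayed among the top 8, and likewise 5 by Spearman's rho. None of the 8 was on the iron or copper lists.

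petL, a plastid-encoded subunit gene of the cytochrome b6f complex of photosynthetic electron transport, also headed the order for AT1G47400 alone, with an r of 0.950, and 0.965 over the 10 arrays without the 2 that stood apart. Its signal was 10.36 and 10.25 in unsalted Ws and 9.98 and 9.38 in salted Ws. In Col it was 9.18 and 8.91 without salt and 10.71 and 9.88 with salt, and in Col(gl) 9.09 and 9.23 without salt and 10.31 and 10.14 with salt. Its salt responses, -0.63, 1.25 and 1.06 in Ws, Col and Col(gl), had the signs of those of AT1G47400 at a smaller size. In Col(gl) the plastid median also rose, from 10.34 and 10.35 to 11.56 and 11.58. In Ws it fell from 11.77 and 11.78 to 11.22 on salted replicate 2. In Col it was 11.54 and 11.39 without salt and 11.37 on salted replicate 2. The directions of petL in Ws and Col(gl) were thus shared by the plastid median, and its rise in Col was not. Of 69 plastid-encoded probe sets 11 were lower in Ws and higher in Col and Col(gl) by group mean, and 12 were higher in Col. These means include the 2 arrays that stood apart. On those arrays petL was higher than on the other replicate of the same group, while the plastid median was lower. The share of all probe sets with these signs was not computed, so nothing is read from the 11.

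For the other genes taken singly, AT5G05250 ran most like AT1G61640 (r of 0.860), petL (0.812) and AT3G17770 (0.798). PYE ran most like AT3G48710 (0.911), AT2G05790 (0.903) and AT4G20320 (0.893), and BHLH101 most like AT3G53670 (0.894), AT5G65300 (0.849) and AT2G23910 (0.847). AT1G47400 had AT1G28710 (0.854) and AT3G17770 (0.800) behind petL. Only the 3 highest genes were taken for each. Within these short lists, those for PYE and for BHLH101 shared no gene with each other or with those of AT1G47400 and AT5G05250.

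**Figure D5:**
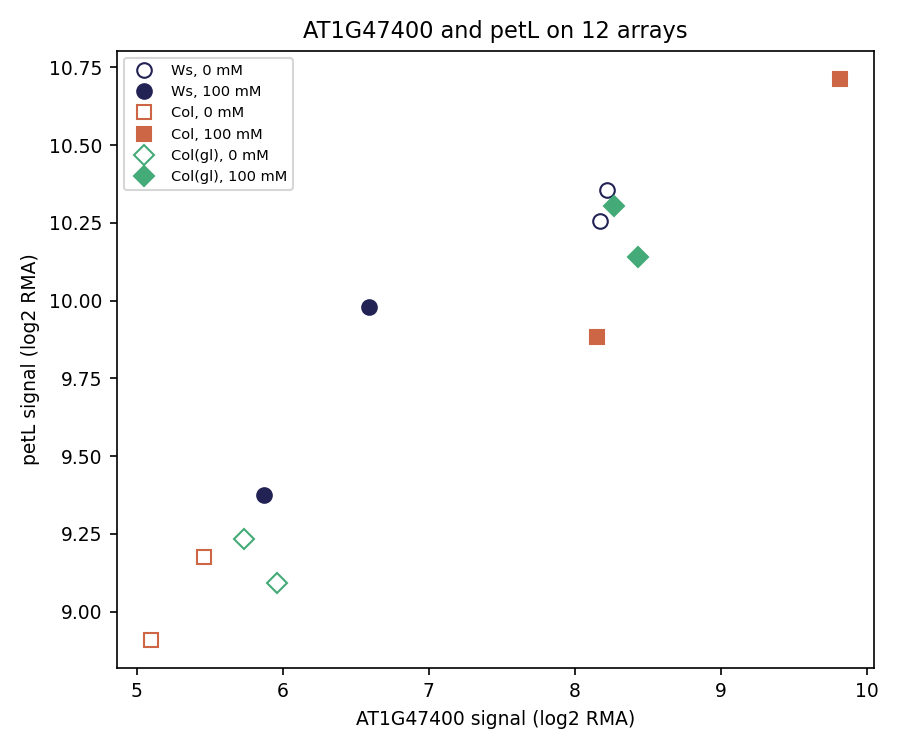
Log2 signal of petL (vertical axis) against that of AT1G47400 (horizontal axis) on the 12 arrays; shape and colour give the genotype, and filled symbols are salted. Arrays of unsalted Col and Col(gl) lie at the low end of both axes, and the Pearson r over the arrays is 0.950.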

How the data were processed

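Leaf RNA of 12 samples was hybridised to Affymetrix arrays. The deposited table holds log2 signals made by the authors with GCOS and RMA, per the submitters' processing notes; versions and settings are not given in the sources used here. The values were used without further normalization. Of 22810 probe sets 64 controls were left out, which left 22746 for testing; the annotation pairs 13513 of them with a single gene, 503 with more than 1 and 8730 with no gene. Groups came from the sample titles.

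A linear model was fitted to every probe set in limma 3.58.1 under R 4.3.3 (1 coefficient per group, all 12 arrays, eBayes with 6 residual and 3.45 prior degrees of freedom), two-sided, with Benjamini-Hochberg adjustment over all probe sets within a comparison and a threshold of 0.05. The fit was checked on simulated data. Plots used matplotlib 3.10.9 and Python 3.11.15.

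The 4 genes and all lists were chosen with earlier results of these data known. The rule for naming other genes took up to 4 called genes per list and comparison with the largest differences, and the genes most like the 4 by correlation. A gene with several probe sets was represented by the one with the highest mean. Flanking genes were added for the surroundings of each locus. Other settings tried were a replicate block, a dim-signal filter, other normalizations, an intensity trend, fits of only the groups compared, and leaving out arrays. Numbers of arrays limit the precision. Sequences were not used here.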

Additional observations from a re-analysis of the deposited data

Results flagged for a closer look

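For AT1G47400, AT5G05250 and PYE every salted array lay below every unsalted one in Ws and above every unsalted one in Col and in Col(gl). Of all probe sets 31.3% were lower without overlap in Ws, 26.8% higher in Col and 26.5% higher in Col(gl). The share with all of these directions at once was not computed. The PYE step in Ws was small, -0.16 ± 0.20 (SE). The salt response of Ws minus that of Col was -5.67 for AT1G47400, -2.80 for AT5G05250 and -1.39 for PYE. The response of Ws minus that of Col(gl) was -4.47, -3.43 and -0.70 for the same genes. These differences chose the genes and were not tested. Among the other iron and copper genes, opposite directions without overlap were also seen for BGLU42 and AT2G22750. The BGLU42 step in Col(gl) was small, from 8.16 and 8.16 without salt to 8.04 and 8.07 with salt. That step did not pass the test. For BGLU42 the response of Ws exceeded that of Col(gl) by 0.87 (limma adjusted p = 0.0193). For AT2G22750, a bHLH gene, the response of Col(gl) minus that of Col was 0.17 and did not pass the test; its signal was at or under the lower quartile on all 12 arrays. The responses of Col(gl) and Col differed in the limma fit for BGLU42 (-1.04, adjusted p = 0.00432) and CCS (-1.08, adjusted p = 0.00471). For CCS both arrays of each salted group lay above those of the unsalted group in all 3 genotypes. For BGLU42 they lay above in Ws and Col and below in Col(gl).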

How the results depend on the processing

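For the 4 genes 272 alternative values of 36 differences were computed; 50 moved by at least 1 SD and 6 changed sign. These were AT1G47400 for Col(gl) minus Col with salt, from -0.63 to 0.20 without replicate 1 of salted Col and without both replicate 1 arrays, AT5G05250 for Col(gl) minus Col without salt (0.15 to -0.02), and BHLH101 for salt in Ws (-0.09 to 0.02), for Ws minus Col without salt (0.07 to -0.04) and for the response of Col(gl) minus that of Col (0.26 to -0.13). For the 20 listed genes 142 of 182 alternative counts of calls stayed within 1.5 times the reported one. The counts that moved more were, for the salt response in Ws (4), 0 with only the groups compared; for Col(gl) (0), 1 after quantile renormalization, on a common array median and with an intensity trend, 2 with only the groups compared, and 3 without replicate 1 of both salted Ws and salted Col; for Ws minus Col without salt (2), 4 with the dimmest 25% left out and with the trend, and 6 with only the groups compared and without both replicate 1 arrays; for Ws minus Col with salt (3), 0 with only the groups compared and 6 without both replicate 1 arrays; for the response of Ws minus that of Col (0), 1 after quantile renormalization and with the trend; and for that of Col(gl) minus that of Col (2), 4 on a common array median. The causes were not tested. Leaving out each array in turn gave 2 to 6 calls for salt in Ws, 6 to 10 in Col and 0 to 1 in Col(gl), 1 to 5 for Ws minus Col and 5 to 8 for Col(gl) minus Col without salt, 2 to 4 and 2 to 6 with salt, and 0 to 1 and 2 to 3 for the differences of responses. Replicate numbers carry no stated pairing, and deviations of same-numbered arrays correlated between -0.35 and 0.70 across the 7 pairs of groups. With a replicate block the counts were 4, 9 and 0 for salt, 3 and 8 without salt, 3 and 6 with salt, and 0 and 2 for the differences. With crossed replicate numbers as pairs, an alternative added after seeing the data, 3 genes were called for salt in Col(gl) and 6 for Ws minus Col without salt. Signal over background limits BHLH101, NAI1, AT3G13610, AT1G74770, AT2G22750 and the root markers, among others, and 2 arrays per group limit every error.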
